A study of Mus musculus with 35 samples.

Results

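The comparison described here is the response of the mouse lung to naphthalene at day 7 minus its response at day 5, where a response is the log2 level in naphthalene-treated lungs minus that in untreated lungs carrying the same day label, averaged with equal weight over 2 genotypes. Its members are the 23 libraries, of 35 in the series, whose titles carry day 5 or day 7. There were 5 libraries from treated mice at day 7 (2 KO and 3 C), 6 from untreated mice at day 7 (3 KO and 3 C), 6 from treated mice at day 5 (3 KO and 3 C) and 6 from untreated mice at day 5 (3 KO and 3 C). KO is RORaf/fIl7riCre, a floxed Rora allele combined with Cre driven by the Il7r locus, so that deletion is limited to cells that express or once expressed Il7r. C is RORaf/f, and no Cre is named for it. The series design gives an age of 14 days, with no separate age for each day label, and neither label nor design states the dose or route of naphthalene. RNA came from whole lung homogenate and was made into mRNA libraries. The labels do not say how libraries relate to animals. Libraries of a group were treated as replicates, so p-values measure the spread between these samples, which may be technical in part.

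Naphthalene is toxic to club cells, the secretory cells of the conducting airways, because their cytochrome P450 enzymes turn it into reactive products. Surviving airway cells spread over the denuded surface, proliferate and then mature again into secretory and ciliated cells. In this model the airway epithelium is typically rebuilt over days to weeks, so that days 5 and 7 fall within the repair.

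The 23 libraries held 13.06 to 21.06 M (mega) counts, with a median of 15.78 M. Every library carried high levels of the alveolar type 2 surfactant gene Sftpc, between 4850 and 20900 CPM (counts relative to the library total, scaled by TMM factors). Rora did not separate the genotypes, with 25.2 to 60.9 CPM in the 11 KO and 38.3 to 52.9 CPM in the 12 C libraries. Il7r, the locus that carries the Cre, had 3.27 to 5.12 CPM in the 6 untreated KO libraries and 8 to 12.2 CPM in the 6 untreated C libraries, which did not overlap. Treated libraries did overlap for Il7r, with 3.43 to 11.2 CPM in the 5 KO and 2.55 to 9.82 CPM in the 6 C libraries. One untreated C library of day 5 (replicate 1) was the highest of all 35 for 11 of 13 microglia genes tested, for example P2ry12, with 159 CPM where the other 34 held 1.11 to 3.92 CPM, and values without it are given beside the counts and lists that it moves. The treated KO library of day 5, replicate 1, also stood apart, with Il7r at 11.2 CPM against 2.55 to 4.74 CPM in the other treated libraries of day 5. Library names carry a letter that the labels do not explain. At day 5 it was b or i in treated and f or o in untreated libraries, so treatment and letter cannot be told apart there, while all 11 libraries of day 7 carried the letter p.

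No gene passed the test of the difference between the responses at day 7 and day 5. By edgeR's quasi-likelihood test, 0 of 20606 genes (0%) had an adjusted p below 0.05, and the smallest adjusted p was 0.485. At an unadjusted p below 0.05 there were 1378 genes (6.69%), 762 with a positive difference (3.7%) and 616 with a negative one (2.99%). Without the untreated C library that carried microglia transcripts, 536 positive (2.61%) and 470 negative (2.29%) genes had an unadjusted p below 0.05, 0 were called and the smallest adjusted p was 0.863. Other libraries moved the unadjusted count further, to 2987 without the treated KO library replicate 1 of day 5, 2770 without the untreated C library replicate 3 of day 5 and 907 without the treated KO library replicate 2 of day 5. The smallest adjusted p with 1 library left out was 0.0551, without the treated KO library replicate 2 of day 7, so that 0 genes were called in each of the 23 fits. DESeq2 also called 0 genes, with 1461 at an unadjusted p below 0.05. The precision was limited: the median standard error of a gene's difference was 0.289 on the log2 scale, against 0.211 for the response at day 7 and 0.198 for that at day 5. A p that misses the threshold does not show that a gene responded alike on both days.

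The responses themselves were called for very different numbers of genes. At day 7, 69 genes rose and 8 fell with naphthalene, 77 in all (0.374% of those tested). At day 5, 894 rose and 582 fell, 1476 in all (7.16%), and 680 without the untreated C library replicate 1. Treatment and library letter cannot be told apart at day 5, whereas all libraries of day 7 carried the letter p. Of the 77 genes called at day 7, 73 were also called at day 5 with the same sign, which is 94.8% of the day 7 calls and 4.95% of the day 5 calls. The count at day 5 moved by over 1.5 times when any 1 of its 6 treated libraries was left out. It was then 823, 813 or 944 without a C library (replicates 1, 2 and 3) and 4073, 556 or 672 without a KO library. It was also 852 or 3596 without the untreated C library replicate 2 or 3, and 706 without the untreated KO library replicate 2. With day 5 limited to the letters b and f it was 244. The count at day 7 was 50 or 33 without the treated KO library replicate 1 or 2, 48 without the treated C library replicate 3, 44 or 50 without the untreated C library replicate 2 or 3, and 50 or 47 without the untreated KO library replicate 1 or 3. The untreated lungs also differed between the day labels: 4460 genes (21.6%) were called between untreated lungs of day 7 and day 5, against 1311 (6.36%) between treated lungs of day 7 and day 5. No library letter was shared between the days, so day and letter cannot be told apart in either comparison. The 4460 became 3597 without the untreated C library replicate 1 of day 5, 2750 without the untreated C library replicate 2 of day 5 and 2600 without the untreated KO library replicate 3 of day 7. The 1311 became 426 without the treated KO library replicate 1 of day 7, 686 or 853 without the treated C library replicate 1 or 2 of day 7, and 812 or 821 without the treated C library replicate 1 or 3 of day 5. A difference of responses can therefore arise from either side, and both are given below.

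**Figure D1:**
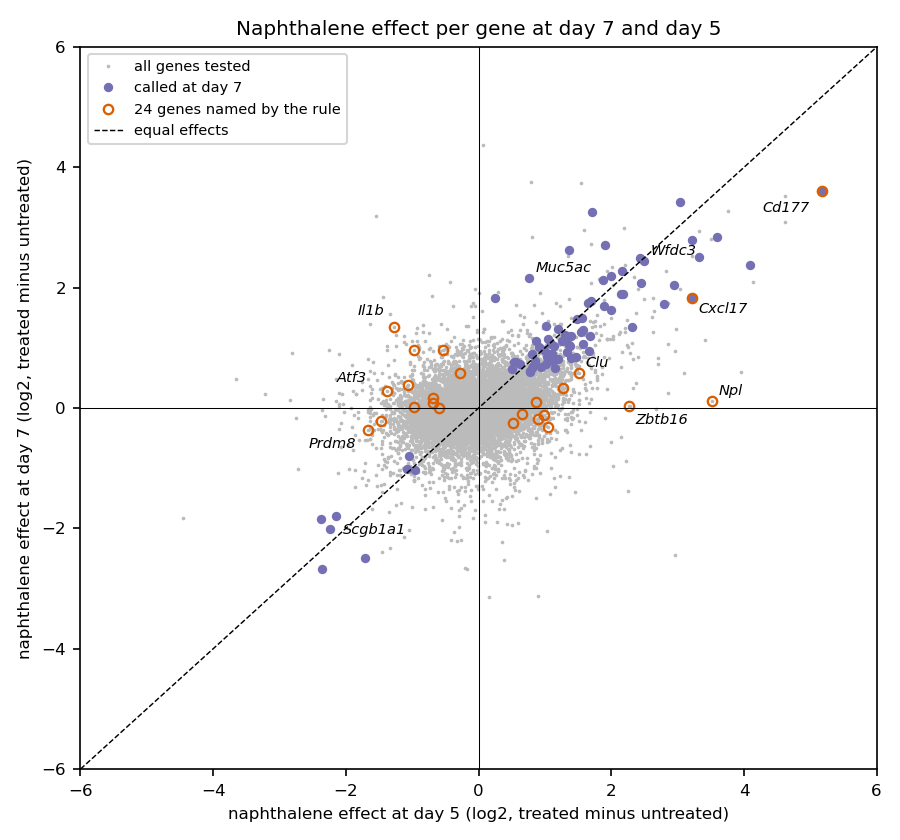
Response to naphthalene of each of 20606 genes at day 7 (vertical axis, log2) against day 5 (horizontal axis, log2); filled points are the 77 genes called at day 7, open circles are 24 genes named by a fixed rule, and the dashed line marks equal responses. Cd177 and Scgb1a1 lie on the same side of zero on both days, while Npl, Zbtb16 and Clu lie to the right of the line with small responses at day 7.

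Scgb1a1 and 2 more club cell genes fell on both days. Scgb1a1, the most abundant secretory protein of club cells, fell at both days. It had 6730, 4800 and 3390 CPM in treated C lungs and 3720 and 2460 CPM in treated KO lungs of day 7, against 16800, 11600 and 16500 CPM in untreated C and 9930, 10500 and 17100 CPM in untreated KO lungs. At day 5 it had 1800, 2490 and 1890 CPM in treated C and 1840, 1720 and 1820 CPM in treated KO lungs, against 9130, 6740 and 10200 CPM in untreated C and 7690, 8390 and 9110 CPM in untreated KO lungs. Treated and untreated libraries did not overlap on either day, and in bulk RNA fewer club cells and less Scgb1a1 RNA per cell cannot be told apart. The response was -1.80 ± 0.21 (SE, log2; edgeR adjusted p 3.83e-06) at day 7 and -2.15 ± 0.19 (adjusted p 1.31e-08) at day 5, a difference of 0.35 ± 0.27 with a 95% interval of -0.20 to 0.90 (adjusted p 0.721), and of 0.33 without the untreated C library replicate 1. Scgb1a1 was higher in treated lungs of day 7 than of day 5 by 1.03 (adjusted p 0.00208), and untreated lungs were higher at day 7 by 0.68 (adjusted p 0.01).

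Of 29 club cell genes tested, 1 rose and 3 fell at day 7, and 5 rose and 4 fell at day 5 (3 and 4 without the untreated C library replicate 1), where 0.335% and 0.0388% of all genes rose and fell at day 7 and 4.34% and 2.82% at day 5. Those that fell on both days included Scgb1a1 and Pon1, a lactonase, which fell by 1.02 at day 7 (edgeR adjusted p 0.0197) and 1.08 at day 5 (adjusted p 0.00096). Cyp2s1, a cytochrome P450, moved the other way and rose by 0.67 at day 7 (adjusted p 0.0265) and 1.15 at day 5 (adjusted p 2.31e-06). With each of 23 libraries left out in turn, Scgb1a1 stayed called at day 7 in 23 fits, Pon1 in 19 and Cyp2s1 in 15, and all 3 stayed called at day 5 in 23. No club cell gene had a positive difference at an unadjusted p below 0.05, and 6 had a negative one (5 without that library), among them Gsto1, a glutathione transferase (-0.73 ± 0.25), and Cyp2b10 (-0.93 ± 0.33). Over all genes tested, 3.7% had a positive and 2.99% a negative one (2.61% and 2.29% without that library). The list's median difference was -0.24, beside 0.01 over all genes tested.

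Several genes had point estimates of nearly the same size on both days. Wfdc3, a whey acidic protein of the protease inhibitor class, had 5.39 to 9.19 CPM in treated and 0.946 to 1.52 CPM in untreated lungs of day 7, and 4.87 to 9.3 CPM in treated and 0.541 to 1.53 CPM in untreated lungs of day 5. It rose by 2.44 ± 0.22 at day 7 (edgeR adjusted p 3.63e-08) and by 2.49 ± 0.22 at day 5 (adjusted p 1.22e-08), a difference of -0.05 with an interval of -0.67 to 0.57. Areg, an EGF receptor ligand, rose by 1.5 at day 7 and 1.56 at day 5. Its levels were lower at day 7 on both sides, with 3.59 to 9.6 CPM in treated and 1.01 to 4.46 CPM in untreated lungs, against 8.67 to 20.2 CPM in treated and 3.51 to 6.5 CPM in untreated lungs of day 5. Ltf, the antimicrobial protein lactotransferrin, rose by 1.48 on both days. Il33, an epithelial alarmin cytokine, rose by 0.90 at day 7 and 0.81 at day 5. The differences were -0.06 ± 0.41 for Areg, -0.01 ± 0.45 for Ltf and 0.09 ± 0.26 for Il33, so equal responses were not shown. With each library left out in turn, Wfdc3 stayed called at day 7 in 23 of 23 fits, Areg in 19, Il33 in 17 and Ltf in 16, and each stayed called at day 5 in 23. Wfdc3, Areg, Ltf and Il33 were chosen after their values were seen.

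Many transcripts of injured airway epithelium had smaller responses at day 7, though none passed the test of the difference. Of 24 such genes tested, 5 rose at day 7 and 13 at day 5, beside 0.335% and 4.34% of all genes. None of the 24 fell on either day, and 19 had a difference below 0, beside 10058 of all 20606 genes. At an unadjusted p below 0.05, 9 had a negative difference and 0 a positive one (7 and 0 without the untreated C library replicate 1). Over all genes tested, 2.99% had a negative and 3.7% a positive one (2.29% and 2.61% without that library). The list's median difference was -0.43 (-0.39 without that library). The list was chosen with earlier results of these data known. Of all 894 genes that rose at day 5, 860 had a response closer to 0 at day 7, so smaller responses were not particular to this list. Picking genes by a high response at day 5 favours smaller ones at day 7, so that count cannot show a decline. Of the 894, 303 had a difference at an unadjusted p below 0.05. The genes of the list still called at day 7 were Cxcl17, a mucosal chemokine, the EGF receptor ligands Ereg and Areg, the uroplakin Upk3a, and Psapl1, a prosaposin-like protein.

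Cxcl17 had 24.2, 23.2 and 25.5 CPM in treated C and 19.3 and 28.6 CPM in treated KO lungs of day 7, against 4.19 to 10.5 CPM in untreated lungs. At day 5 the levels were 30.2, 28.6 and 30 CPM in treated C and 16.1, 68.6 and 61.5 CPM in treated KO lungs, against 1.38 to 6.5 CPM in untreated lungs. Treated libraries were above untreated ones on both days, while treated libraries of the 2 days overlapped. The response was 1.83 ± 0.30 at day 7 (edgeR adjusted p 0.00145) and 3.21 ± 0.30 at day 5 (adjusted p 3.39e-08). Its difference of -1.38 ± 0.42 (interval -2.23 to -0.53) did not pass the test (adjusted p 0.654), and was -1.19 without the untreated C library replicate 1.

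Clu encodes clusterin, a secreted chaperone induced in damaged and regenerating epithelia. It had 127, 136 and 165 CPM in treated C and 129 and 159 CPM in treated KO lungs of day 7, against 68.7 to 118 CPM in untreated lungs, and 204, 161 and 186 CPM in treated C and 111, 309 and 244 CPM in treated KO lungs of day 5, against 53.8 to 85.7 CPM in untreated lungs. The median was lower in treated and higher in untreated lungs at day 7 than at day 5, and treated and untreated libraries did not overlap on either day. Its response was 0.59 ± 0.18 at day 7 (adjusted p 0.237) and 1.51 ± 0.17 at day 5 (adjusted p 1.2e-06), a difference of -0.91 ± 0.25 (interval -1.42 to -0.40, edgeR adjusted p 0.519), and of -0.89 without the untreated C library replicate 1. By limma voom with library weights, an alternative added after seeing the data, 10 genes were called for the difference. Clu was among them (adjusted p 0.0117), with Atf3, Arid5a and Zfp711 (0.0117 each), Cdc20b (0.0216), H2-Q10 (0.0228) and Prdm8 (0.0235). The keratins of simple epithelium Krt8 and Krt18, and Krt19, rose at day 5 by 0.80, 0.76 and 1.18, and had values of 0.14, 0.15 and 0.23 at day 7, none of them called.

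Cd177 had the largest response on each day among the 24 genes named by the rule. It encodes a surface glycoprotein best known from neutrophils. It had 16.4, 17.9 and 19.5 CPM in treated C and 21.8 and 40.9 CPM in treated KO lungs of day 7, against 1.55 to 2.7 CPM in untreated lungs, and 62, 24.1 and 67.2 CPM in treated C and 48.7, 178 and 153 CPM in treated KO lungs of day 5, against 1.83 to 2.69 CPM in untreated lungs. It rose by 3.60 ± 0.31 at day 7 (edgeR adjusted p 1.93e-08) and by 5.18 ± 0.31 at day 5 (adjusted p 1.36e-12). The difference was -1.58 ± 0.43 (interval -2.45 to -0.71, adjusted p 0.519) and lay in the treated lungs, where day 7 was lower than day 5 by -1.76 (adjusted p 0.000488), while untreated lungs differed by -0.18 (adjusted p 0.728). The difference was -1.65 without the untreated C library replicate 1.

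The other neutrophil genes depended on 1 library. Of 18 tested, Cd177 included, 2 rose at day 7 (Cd177 and Ltf) and 3 at day 5, beside 0.335% and 4.34% of all genes. None of the 18 fell. A difference above 0 was seen for 14, beside 10548 of all 20606 genes, and the list's median was 0.66. A positive difference at an unadjusted p below 0.05 was seen for 4 (3 without the untreated C library replicate 1), and a negative one for 1, Cd177. Over all genes tested, 3.7% had a positive one (2.61% without the untreated C library replicate 1) and 2.99% a negative one. The treated KO library of day 7, replicate 1, had S100a8 at 163 CPM against 18.6 to 35.6 CPM in the other treated libraries of day 7. Without that library 6 of the 18 had a difference above 0, the median was -0.15, 1 had a positive difference at an unadjusted p below 0.05, and 1 rose at day 7. Csf3r, the receptor for granulocyte colony-stimulating factor, had 54.3, 77.1 and 30.7 CPM in treated C and 118 and 29 CPM in treated KO lungs of day 7. Its difference was 1.49 ± 0.37 (edgeR adjusted p 0.519), and 0.81 without the same library (adjusted p 0.848). The summed neutrophil level was 350.3 to 934.3 CPM in treated and 224.6 to 290 CPM in untreated lungs of day 7, and 276.8 to 794.5 CPM in treated and 197.4 to 298.2 CPM in untreated lungs of day 5. That sum includes Cd177 and Lcn2, and Lcn2 had 133 to 278 CPM in treated and 71.8 to 128 CPM in untreated lungs of day 7. S100a8 overlapped at day 7, with 18.6 to 163 CPM in treated and 18.2 to 27.7 CPM in untreated lungs. Retnlg overlapped too, with 8.09 to 55.6 CPM and 7.04 to 13.7 CPM.

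**Figure D2:**
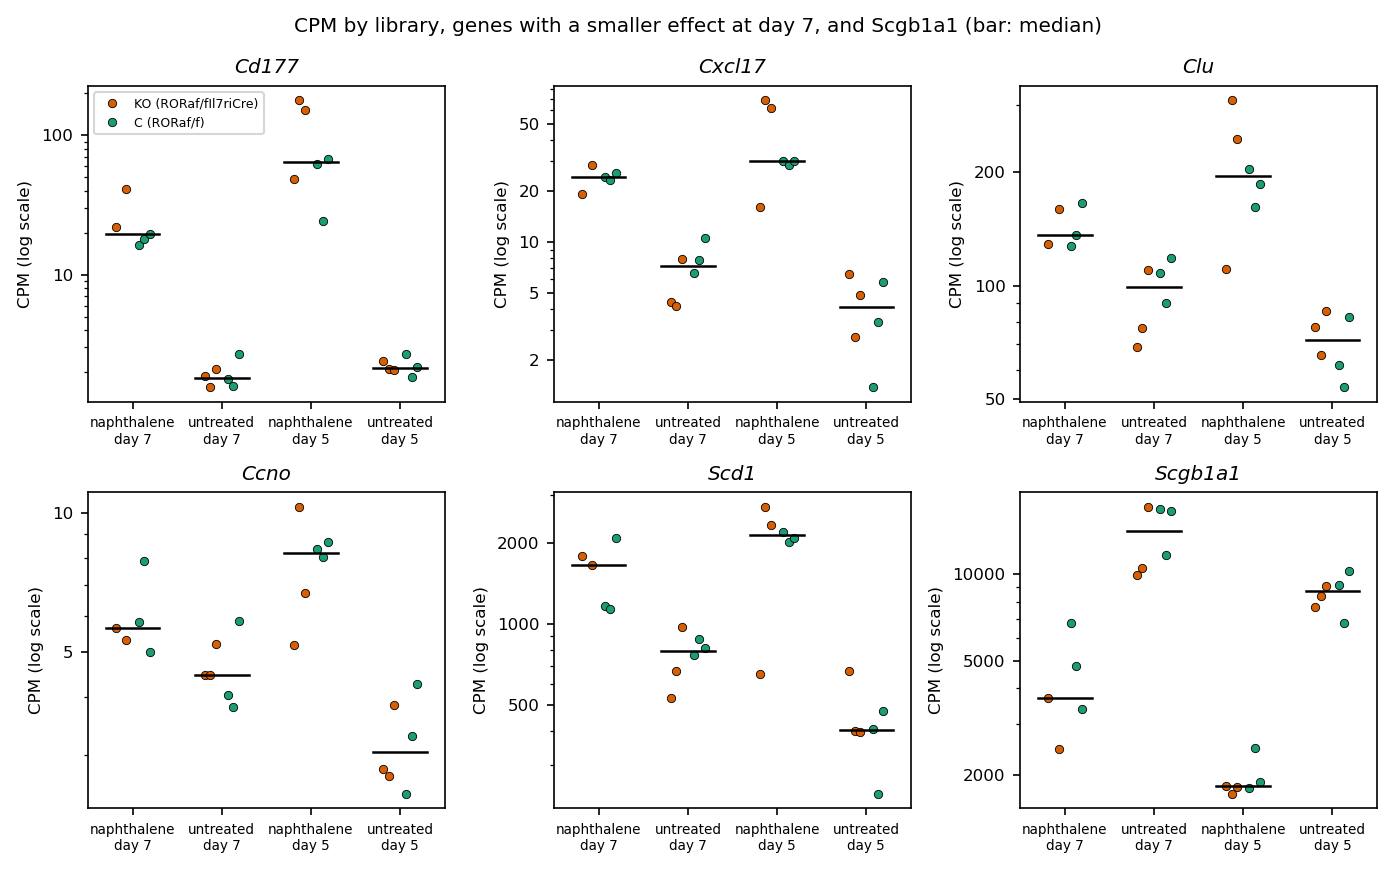
Levels of Cd177, Cxcl17, Clu, Ccno, Scd1 and Scgb1a1 in each of the 23 libraries (CPM, log axis), with treated and untreated lungs of day 7 left of those of day 5; points are libraries coloured by genotype and bars are medians. Cd177 had a median of 19.5 CPM in treated lungs of day 7 and 64.6 CPM in treated lungs of day 5, while Scgb1a1 stayed below untreated lungs on both days.

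Some ciliated cell genes rose at day 7 and most at day 5. Of 29 tested, 7 rose at day 7 and 20 at day 5, beside 0.335% and 4.34% of all genes, and none of the 29 fell. The list's median response was 0.57 at day 7 and 0.91 at day 5. The genes called on both days encode parts of the finished cilium, such as the dynein components Dnah9 (0.70 at day 7, 0.82 at day 5) and Dnai2 (0.73 and 1.01) and the radial spoke proteins Rsph1 (0.66 and 0.80) and Rsph4a (1.01 and 0.91). Cfap52, also called on both days, had a smaller response at day 7, 0.94 against 1.67 at day 5 (difference -0.73 ± 0.28). With each library left out in turn the number that rose ranged from 1 to 8 at day 7 and from 19 to 22 at day 5, and Rsph1 stayed called at day 7 in 15 of 23 fits. At an unadjusted p below 0.05, 8 of the 29 had a negative difference, beside 2.99% of all genes. Without the untreated C library replicate 1 there were 7, beside 2.29% of all genes. The 8 included regulators of the step that multiplies centrioles before cilia form. Ccno, a cyclin-family protein of that step, had 5.81, 7.87 and 5 CPM in treated C and 5.64 and 5.31 CPM in treated KO lungs of day 7, against 3.8 to 5.84 CPM in untreated lungs. At day 5 it had 8.35, 8.01 and 8.65 CPM in treated C and 5.17, 10.3 and 6.71 CPM in treated KO lungs, against 2.47 to 4.27 CPM in untreated lungs. Treated and untreated libraries thus overlapped at day 7 and not at day 5, a layout favoured by picking Ccno by the p of its difference.

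The response of Ccno was 0.33 ± 0.20 at day 7 (edgeR adjusted p 1) and 1.27 ± 0.19 at day 5 (adjusted p 7.62e-05), a difference of -0.94 ± 0.28 (interval -1.51 to -0.37, adjusted p 0.632). Mcidas, which starts the same programme, differed by -1.28 ± 0.49, and Cdc20b, whose gene lies beside Mcidas and Ccno in mammals, by -1.99 ± 0.56. Cdc20b was low, at 0.418 to 2.14 CPM in treated and 0.483 to 1.21 CPM in untreated lungs of day 7, and at 0.713 to 3.3 CPM in treated and 0.141 to 0.715 CPM in untreated lungs of day 5. Foxj1, the master regulator of motile cilia, differed by -0.83 ± 0.38 (interval -1.61 to -0.06, adjusted p 0.696). Mcidas was chosen after its values were seen.

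Some mucous cell genes rose on each day. Of 17 tested, 5 rose at day 7 and 6 at day 5 (5 without the untreated C library replicate 1), beside 0.335% and 4.34% of all genes. The list's median responses were 0.78 and 0.79. Muc5ac, the secreted gel-forming mucin of airway goblet cells, was called at day 7 and not at day 5. It had 3.17, 2.39 and 3.94 CPM in treated C and 0.974 and 5.39 CPM in treated KO lungs of day 7, against 0.363 to 1.49 CPM in untreated lungs, and 0.902 to 2.91 CPM in treated and 0.661 to 1.53 CPM in untreated lungs of day 5. Its response was 2.16 ± 0.40 at day 7 (edgeR adjusted p 0.00523) and 0.76 ± 0.37 at day 5 (adjusted p 0.186), and the difference of 1.40 ± 0.55 did not pass the test (interval 0.29 to 2.51, adjusted p 0.696). The day 7 response rested on the treated KO library replicate 2: without it the response was 1.32 (adjusted p 0.323) and the difference 0.55. The counts behind these levels are low. Aoc1, a diamine oxidase, went the other way, at 1.73 at day 7 and 2.79 at day 5 (difference -1.06 ± 0.36, adjusted p 0.696). Muc4, a membrane mucin, rose by 1.19 at day 7 and 1.68 at day 5, and Agr2, a disulfide isomerase needed for mucin folding, by 2.51 at day 7 (1.86 and not called without that library) and 3.32 at day 5. The other genes called at day 7 and not at day 5 were the chemokines Ccl8 (3.26 at day 7, 1.71 at day 5) and Cxcl9 (2.63 and 1.36) and the gene model Gm16556, chosen after their values were seen. Without the same library Ccl8 was at 2.18 (adjusted p 0.255) and Cxcl9 at 1.13 (adjusted p 1) at day 7.

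Alveolar type 2 and lipid synthesis genes had responses at day 5 and none called at day 7. Of 18 type 2 cell genes tested, 0 were called at day 7 and 8 rose at day 5, among them the surfactant genes Sftpc, Sftpa1 and Sftpd, but without the untreated C library replicate 1 none of the 8 remained called (2.39% of all genes rose in that fit). Sftpc differed by -0.68 ± 0.34 (adjusted p 0.696), with 12500 to 18000 CPM in treated and 9410 to 20000 CPM in untreated lungs of day 7, and 9310 to 20900 CPM in treated and 4850 to 13400 CPM in untreated lungs of day 5. The treated ranges overlapped across days, and the untreated lungs of day 5 were the lowest. Of 29 genes of fatty acid and cholesterol synthesis, 0 were called at day 7 and 10 rose at day 5 (5 without that library). In the fit of all libraries, 4.34% of all genes rose at day 5.

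Scd1, the desaturase that makes monounsaturated fatty acids, had 1170, 1140 and 2080 CPM in treated C and 1790 and 1650 CPM in treated KO lungs of day 7, against 529 to 976 CPM in untreated lungs. At day 5 it had 2190, 2020 and 2080 CPM in treated C and 651, 2720 and 2320 CPM in treated KO lungs, against 234 to 669 CPM in untreated lungs. Its response was 1.04 ± 0.29 at day 7 (edgeR adjusted p 0.147) and 2.23 ± 0.29 at day 5 (adjusted p 8.24e-06), a difference of -1.18 ± 0.40 (interval -2 to -0.36, adjusted p 0.696).

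Of 21 alveolar macrophage genes tested, 0 were called at day 7 and 7 rose at day 5 (6 without the untreated C library replicate 1), beside 4.34% of all genes (2.39% without it). The list shares Krt19, a keratin that rose at day 5, with the mesothelial list and Car4 with the endothelial list. A negative difference at an unadjusted p below 0.05 was seen for 8 (7 without the untreated C library replicate 1). A positive one was seen for 0. Over all genes tested, 2.99% had a negative one (2.29% without that library) and 3.7% a positive one. The list's median difference was -0.43. Marco, a scavenger receptor, differed by -0.73 ± 0.34 and rose at day 5 by 0.88 (adjusted p 0.0207), with 0.15 at day 7, a day 5 call that held in 18 of the 23 fits with 1 library left out. Chil3, a chitinase-like protein, rose at day 5 by 1.42, with 0.84 at day 7 (adjusted p 0.216). Collagen and elastic fibre genes had small differences, 25 of 27 below 0 with a median of -0.39, beside 10058 of all 20606 genes below 0. Of the 27, 3 rose at day 5 (4.34% of all genes did): Lum and Dcn, small proteoglycans, and the matrix protein Fbln1.

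Several genes with a positive difference were lower in treated than in untreated lungs at day 5, with no such gap at day 7. Atf3, a stress-induced transcription factor, had 4.91, 5.1 and 4.19 CPM in treated C and 9.33 and 6.27 CPM in treated KO lungs of day 7, against 3.84, 3.93 and 5.06 CPM in untreated C and 6.04, 7.5 and 3.75 CPM in untreated KO lungs. At day 5 it had 8.98, 6.92 and 7.18 CPM in treated C and 10.2, 9.28 and 9.35 CPM in treated KO lungs, against 22.1, 19.3 and 20.9 CPM in untreated C and 29.7, 22.1 and 20.3 CPM in untreated KO lungs. The untreated lungs of day 5 stood above all other libraries of the comparison. The response was 0.29 ± 0.29 at day 7 (edgeR adjusted p 1) and -1.38 ± 0.26 at day 5 (adjusted p 0.00126), and the difference was 1.67 ± 0.39 (interval 0.88 to 2.46, adjusted p 0.485), and 1.65 without the untreated C library replicate 1. Treated lungs differed between the days by -0.50 (adjusted p 0.302) and untreated lungs by -2.17 (adjusted p 8.91e-06). In a fit of the 23 libraries alone, Atf3 was the 1 gene called for the difference (1.65 ± 0.23, adjusted p 0.00606).

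Arid5a, Apold1 and Bcl6b were likewise higher in untreated than in treated lungs of day 5. Arid5a, an RNA-binding protein that stabilises inflammatory mRNAs, had 28.6, 36.8 and 19.8 CPM in treated C and 28 and 16.3 CPM in treated KO lungs of day 7, against 20 to 35 CPM in untreated lungs, and 26.1 to 40.3 CPM in treated and 59.1 to 76 CPM in untreated lungs of day 5. Apold1, an early response gene of endothelial cells, had 6.17, 5.35 and 6 CPM in treated C and 10.6 and 5.87 CPM in treated KO lungs of day 7, against 4.3 to 7.7 CPM in untreated lungs, and 7.25 to 8.59 CPM in treated and 10.5 to 27.6 CPM in untreated lungs of day 5, where the lowest lay just under the highest treated lung of day 7. Bcl6b, a transcriptional repressor found in endothelium, had 75.7, 81.5 and 68 CPM in treated C and 104 and 67.5 CPM in treated KO lungs of day 7, against 59.5 to 104 CPM in untreated lungs, and 72.5 to 99.5 CPM in treated and 133 to 147 CPM in untreated lungs of day 5. For each, treated and untreated lungs overlapped at day 7 and not at day 5. Picking genes by the p of the difference favours such a layout, so it is not separate support. The differences were 0.98 ± 0.23 for Arid5a, 1.45 ± 0.33 for Apold1 and 0.77 ± 0.19 for Bcl6b, with edgeR adjusted p of 0.485, 0.485 and 0.519, and that of Arid5a was 0.74 without the treated KO library replicate 1 of day 7. Each gene fell at day 5, by 0.97, 1.06 and 0.69.

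Il1b, the inflammatory cytokine interleukin-1 beta, had 5.81, 7.18 and 4.07 CPM in treated C and 28.7 and 3.41 CPM in treated KO lungs of day 7, against 4.33, 2.42 and 2.26 CPM in untreated C and 6.04, 5.67 and 2.72 CPM in untreated KO lungs. At day 5 it had 5.19, 4.55 and 6.39 CPM in treated C and 7.37, 6.43 and 5.52 CPM in treated KO lungs, against 30.7, 16.3 and 10.8 CPM in untreated C and 10.9, 14.4 and 6.45 CPM in untreated KO lungs. The highest values were the treated KO library of day 7 with high S100a8 and the untreated C library of day 5 with microglia transcripts. The difference was 2.61 ± 0.60 (interval 1.38 to 3.84, edgeR adjusted p 0.485), 2.36 without the untreated C library replicate 1 and 1.48 without the treated KO library replicate 1 of day 7 (adjusted p 0.848). Fosl2, an AP-1 subunit, differed by 0.86 ± 0.23, with 91.3 to 164 CPM in treated and 88.3 to 124 CPM in untreated lungs of day 7, and 75.5 to 106 CPM in treated and 105 to 218 CPM in untreated lungs of day 5. Klhl3, an adaptor of a ubiquitin ligase, differed by 0.86 ± 0.22, with 5.67 to 8.35 CPM in treated and 3.8 to 4.9 CPM in untreated lungs of day 7, and 4.37 to 7.33 CPM in treated and 6.04 to 10.1 CPM in untreated lungs of day 5. H2-Q10, a class I MHC gene, differed by 1.93 ± 0.42, with 3.25 to 10.4 CPM in treated and 2.06 to 5.18 CPM in untreated lungs of day 7, and 2.43 to 4.63 CPM in treated and 3.97 to 11.4 CPM in untreated lungs of day 5. Its difference was 1.41 without the treated KO library replicate 1 of day 7, and its value is uncertain, because near-identical class I genes can share reads.

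Promoters of Atf3, Arid5a, Apold1 and Nr4a1 are shown because these genes share the high level in untreated lungs of day 5, and each spans 250 bases before to 50 after the gene start. The sequences are RefSeq's for build GRCm38.p6, whereas the counts were made on GRCm39. Capitals mark matches on either strand to TGACG, the core of the cAMP response element, which ATF and CREB factors bind.
Atf3 promoter, chr1:191183284-191183583, minus strand: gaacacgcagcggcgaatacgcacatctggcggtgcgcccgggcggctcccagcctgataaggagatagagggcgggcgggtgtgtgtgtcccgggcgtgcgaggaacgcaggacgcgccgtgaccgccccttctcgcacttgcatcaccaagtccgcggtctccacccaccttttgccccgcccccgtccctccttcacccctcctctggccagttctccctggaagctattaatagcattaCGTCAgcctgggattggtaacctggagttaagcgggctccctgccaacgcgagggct
Arid5a promoter, chr1:36307483-36307782, plus strand: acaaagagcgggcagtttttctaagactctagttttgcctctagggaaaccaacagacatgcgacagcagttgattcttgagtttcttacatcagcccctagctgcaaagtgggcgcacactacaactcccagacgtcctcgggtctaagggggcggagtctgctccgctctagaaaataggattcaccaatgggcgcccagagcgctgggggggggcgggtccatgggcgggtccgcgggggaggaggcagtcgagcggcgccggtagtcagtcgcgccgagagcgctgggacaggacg
Apold1 promoter, chr6:134981751-134982050, plus strand: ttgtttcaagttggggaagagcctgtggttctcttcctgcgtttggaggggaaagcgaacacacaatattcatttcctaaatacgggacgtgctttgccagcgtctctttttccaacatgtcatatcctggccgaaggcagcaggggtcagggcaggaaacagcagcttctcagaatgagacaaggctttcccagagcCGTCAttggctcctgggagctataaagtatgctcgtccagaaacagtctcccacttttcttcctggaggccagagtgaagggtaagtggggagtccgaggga
Nr4a1 promoter, chr15:101266596-101266895, plus strand: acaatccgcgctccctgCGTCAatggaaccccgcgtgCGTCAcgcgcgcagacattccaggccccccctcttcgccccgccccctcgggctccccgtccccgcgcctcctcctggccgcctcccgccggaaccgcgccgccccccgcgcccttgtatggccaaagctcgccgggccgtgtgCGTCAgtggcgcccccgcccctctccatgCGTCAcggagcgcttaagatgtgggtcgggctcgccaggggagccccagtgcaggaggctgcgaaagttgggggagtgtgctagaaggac
TGACG occurred 1 time for Atf3, 0 times for Arid5a, 1 time for Apold1 and 4 times for Nr4a1, and in 20.8% of all 32851 promoters of this length. The full palindrome TGACGTCA, which contains TGACG on both strands, and the AP-1 motif TGANTCA were found in none of the 4, and in 1.79% and 7.81% of all promoters. A match is a description of these letters, not a site of binding.

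**Figure D3:**
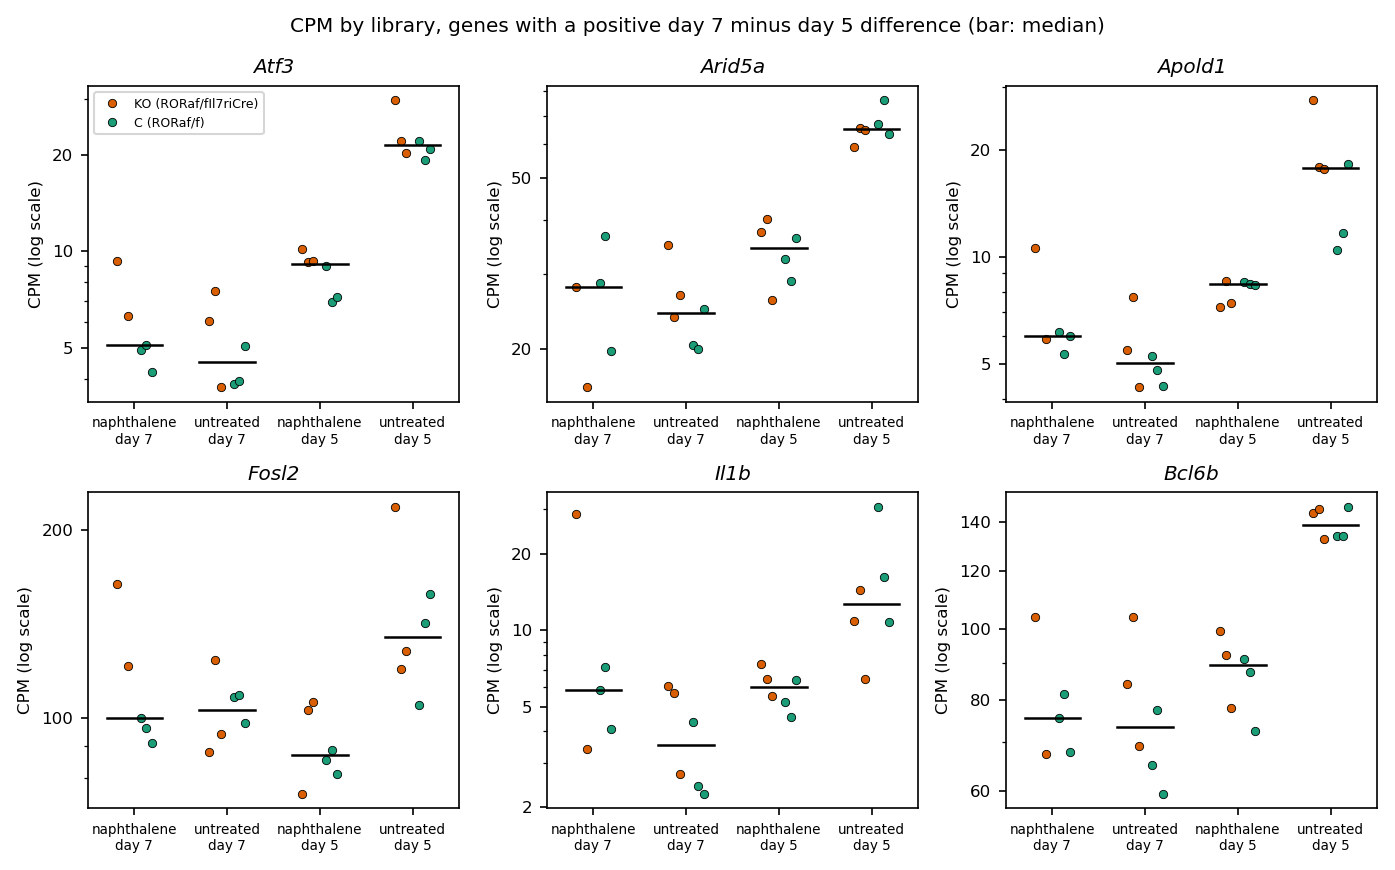
Levels of Atf3, Arid5a, Apold1, Fosl2, Il1b and Bcl6b in each of the 23 libraries (CPM, log axis), with treated and untreated lungs of day 7 left of those of day 5; points are libraries coloured by genotype and bars are medians. For Atf3 the median was 21.5 CPM in untreated lungs of day 5 and between 4.5 and 9.13 CPM in the other 3 conditions.

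Immediate early genes, a list that holds Atf3, are switched on soon after a stimulus and without new protein. Of 22 tested, 19 had a difference above 0, the median was 0.48 (0.51 without the untreated C library replicate 1), and 7 had a positive difference at an unadjusted p below 0.05 (8 without it). None was called at day 7, and 8 fell at day 5 (5 without it, where 0.919% of all genes fell). In the fit of all libraries, 2.82% of all genes fell at day 5, and 10548 of 20606 had a difference above 0. A positive difference at an unadjusted p below 0.05 was seen for 3.7% of all genes (2.61% without the untreated C library replicate 1). Nr4a1, an orphan nuclear receptor, had 17.3 to 79.4 CPM in treated and 29.7 to 55.8 CPM in untreated lungs of day 7, and 27 to 59.3 CPM in treated and 119 to 344 CPM in untreated lungs of day 5, so that the untreated lungs of day 5 again stood alone. Its difference was 2.27 ± 0.68 (adjusted p 0.662). The summed level of the list was 2027 to 3086 CPM in treated and 2289 to 2945 CPM in untreated lungs of day 7, and 2282 to 2754 CPM in treated and 3232 to 4227 CPM in untreated lungs of day 5. Fos differed by 0.74 ± 0.51 and Jun by 0.15 ± 0.17. The library letters f and o of the untreated lungs of day 5 occur in no other condition of the comparison, and their part in these values was not tested.

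Genes of the opposite layout were low in those same untreated lungs. Zbtb16, a transcription factor induced by glucocorticoids, had 86.1, 101 and 180 CPM in treated C and 50.6 and 234 CPM in treated KO lungs of day 7, against 44.1 to 227 CPM in untreated lungs, and 47.2 to 190 CPM in treated and 13.5 to 42.6 CPM in untreated lungs of day 5. Its response was 0.04 ± 0.38 at day 7 and 2.26 ± 0.38 at day 5 (edgeR adjusted p 0.000435), a difference of -2.23 ± 0.54 (interval -3.34 to -1.12, adjusted p 0.519). Untreated lungs differed between the days by 2.26 (adjusted p 0.000283) and treated lungs by 0.04 (adjusted p 0.967). Without the treated KO library replicate 2 of day 7 the difference was -2.98. Of 21 glucocorticoid target genes tested, 4 rose and 1 fell at day 5 (4 and 0 without the untreated C library replicate 1) and 0 were called at day 7. Over all genes, 4.34% rose and 2.82% fell at day 5. The list's median response was 0.01 at day 7 and 0.46 at day 5 (0.21 without that library). Fkbp5, a chaperone of steroid receptors, rose by 1.61 at day 5 and had 0.40 at day 7. Dusp1, a phosphatase of MAP kinases, was the 1 that fell at day 5, by 0.61 (edgeR adjusted p 0.0467), a call that held in 2 of 23 fits with 1 library left out. Nhlrc1, a ubiquitin ligase, differed by -1.37 ± 0.33, with 4.94 to 9.91 CPM in treated and 7.41 to 11.4 CPM in untreated lungs of day 7, and 5.35 to 10.9 CPM in treated and 3.12 to 4.95 CPM in untreated lungs of day 5. Its untreated lungs of day 5 lay below its treated lungs of day 5 and reached the lowest treated lung of day 7.

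Mmp28, a matrix metalloproteinase, Hspa12b, a heat shock protein relative of endothelium, and Map1a, a microtubule-binding protein, differed by -1.10 ± 0.32, -0.76 ± 0.20 and -0.76 ± 0.22. All 3 rose at day 5, by 0.98, 0.66 and 0.86, and had day 7 responses of -0.12, -0.10 and 0.10. Jrk and the kinase Mylk4 differed by -1.06 ± 0.36 and -0.77 ± 0.28. Npl, a sialic acid lyase, had the most negative difference of those named, -3.41 ± 1.17 (interval -5.81 to -1), and -5.37 without the treated KO library replicate 1 of day 7, but its levels scattered within every condition, for example 0.159 to 6.69 CPM in treated and 0.213 to 6.17 CPM in untreated lungs of day 7. Prdm8 and Zfp711, transcriptional regulators, differed by 1.30 ± 0.30 and 1.26 ± 0.32. For both the low point was the treated lungs of day 5: Prdm8 had 15.9 to 29 CPM in treated and 18.2 to 38.4 CPM in untreated lungs of day 7, and 7.84 to 13.3 CPM in treated and 21.6 to 48 CPM in untreated lungs of day 5. Tal1, a transcription factor of blood and endothelium, differed by 0.60 ± 0.18.

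**Figure D4:**
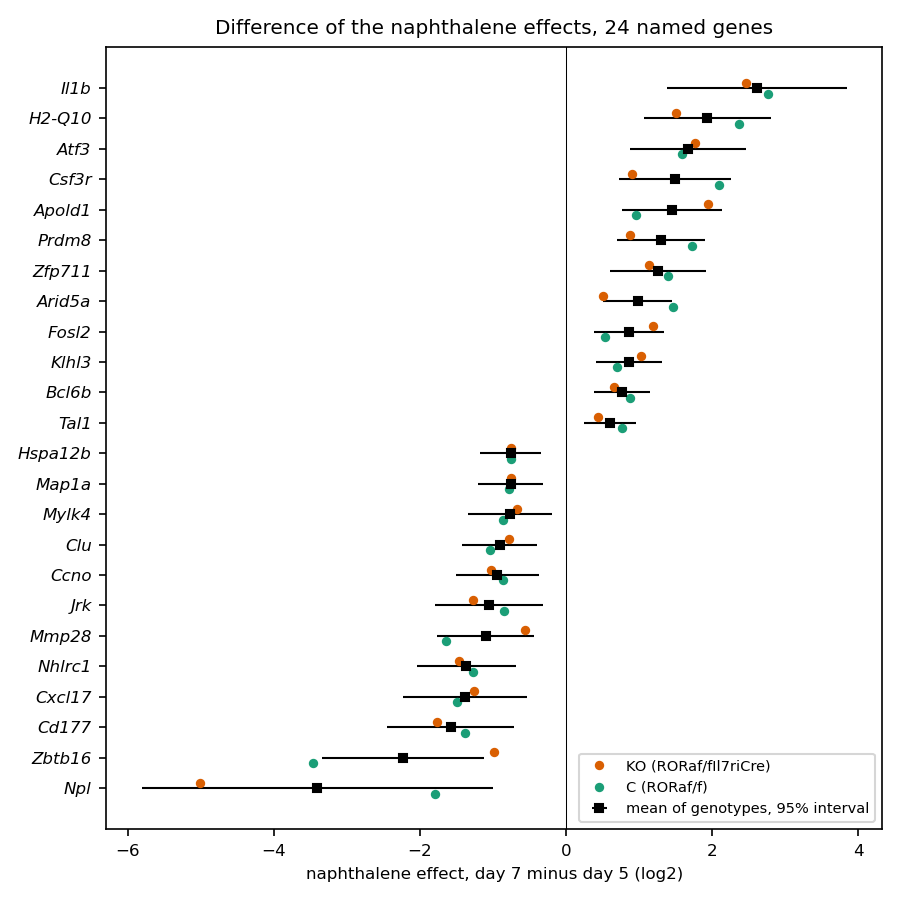
Difference between the responses at day 7 and day 5 (log2) of the 24 genes named by the rule, with its 95% interval as a bar and the value in KO and in C lungs as coloured points. All 24 intervals leave out 0 because the genes were picked by their p, and no gene passed the adjusted threshold. KO and C values share a sign for each gene, which picking by the p of their mean favours, so it is not separate support.

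Some red blood cell genes and most B cell genes tested fell at day 5, and none was called at day 7. Of 14 red blood cell genes, 0 were called at day 7 and 6 fell at day 5 (3 without the untreated C library replicate 1), beside 2.82% of all genes (0.919% without it). With or without it, 6 had a positive difference at an unadjusted p below 0.05, beside 3.7% of all genes (2.61% without it). The median response was -0.11 at day 7 and -0.92 at day 5 (-0.69 without it), and the median difference was 0.69, or -0.20 without the treated KO library replicate 1 of day 7. The list's summed level overlapped, with 4807 to 9298 CPM in treated and 3886 to 14330 CPM in untreated lungs of day 5. The haemoglobin gene Hbb-bs differed by -0.36 ± 0.35. Of 18 B cell genes, 0 were called at day 7 and 13 fell at day 5 (9 without that library), with median responses of -0.55 and -0.83.

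Microglia and monocyte lists moved with 1 library. The median difference of 13 microglia genes was 1.37 with the untreated C library replicate 1 and -0.14 without it. For 21 monocyte and interstitial macrophage genes it was 0.39 with it and -0.13 without it. Cell cycle genes, a readout of proliferation, had 0 calls on either day among 30 tested and a median difference of 0.03, which was 0.32 or -0.43 without the treated KO library replicate 1 or 2 of day 7. Group 2 innate lymphoid cell genes, 24 tested, had a median difference of 0.10, and 0.21 or -0.15 without those libraries.

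**Figure D5:**
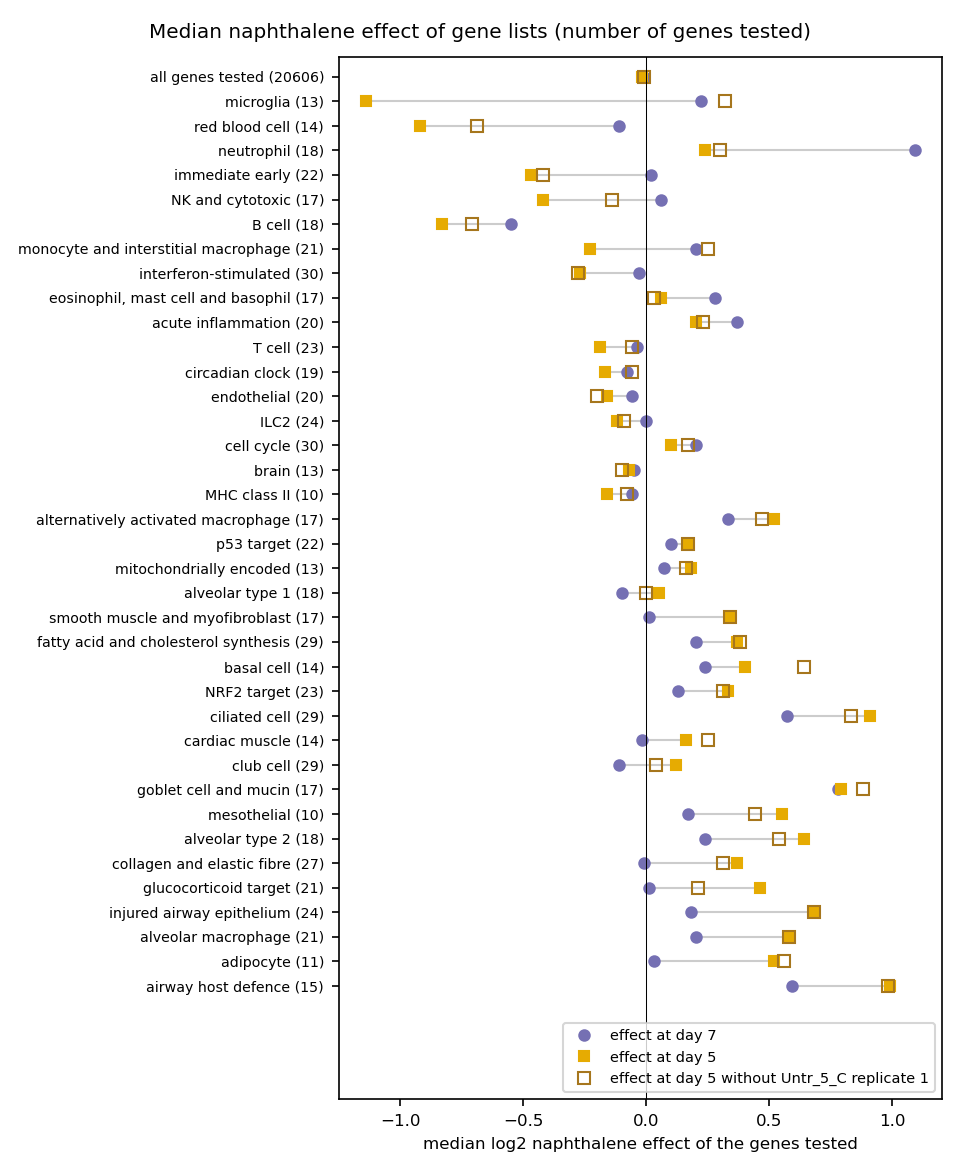
Median response (log2) of each of 37 gene lists and of all genes tested at day 7 (circles) and at day 5 (squares; open squares without the untreated C library replicate 1), ordered by the median difference, with the number of genes tested in brackets. The ciliated list lies at 0.57 and 0.91, the club cell list at -0.11 and 0.12, and the microglia square moves across zero when 1 library is left out.

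The genotypes were also compared. The difference of responses was called for 0 genes in KO lungs and 0 in C lungs (0% each), with 941 and 2719 genes at an unadjusted p below 0.05. With 1 library left out the KO count ranged from 531 (treated replicate 2 of day 5) to 2232 (untreated replicate 2 of day 7). The C count was 1683 without the untreated replicate 1 of day 5, 1591 without its replicate 2 and 4802 without its replicate 3, and 296 genes were called in that last fit. The difference between KO and C lungs was called for 0 genes (0%) by edgeR's quasi-likelihood test, with 2135 at an unadjusted p below 0.05 (1345 without the untreated KO library replicate 1 of day 5 and 3394 without the untreated C library replicate 3 of day 5), and for 2 by DESeq2. Its median standard error was 0.579, so that only large departures could have been seen. Cd177 differed by -1.77 in KO and -1.39 in C lungs, Atf3 by 1.77 in KO and 1.58 in C lungs, and Clu by -0.78 in KO and -1.04 in C lungs. Zbtb16 had the widest gap of these, -0.99 in KO and -3.46 in C lungs (gap 2.46, edgeR adjusted p 0.445). KO lungs at day 7 rest on 2 treated libraries.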

How the data were processed

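Unnormalised counts per gene were taken from the table deposited by the authors, as whole numbers for 57186 genes. The build GRCm39 and DESeq2 are named per the submitters' processing notes, and no source used here names the aligner, counter or annotation release. Counts were tested with edgeR 4.0.16 in R 4.3.3 (filterByExpr, TMM scaling, robust quasi-likelihood F-test, two-sided) in 1 fit of 12 group means over all 35 libraries. Of 39417 genes with any read, 20606 were tested, with Benjamini-Hochberg adjusted p below 0.05 as the threshold. CPM use the TMM factors. The method was tested on simulated data. Alternatives were DESeq2 1.42.0, RLE scaling, no filter, the 23 libraries alone, a replicate block, the letters b and f, each library left out, and, added after seeing the data, pooled genotypes, limma 3.58.1 voom and 3 libraries left out together.

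As no gene passed the test of the difference, named genes were the 12 of smallest p in each direction with at least 5 CPM in a group (excluding gene models, pseudogenes and receptor segments), in the fit without Untr_5_C replicate 1. For each list they were the member of smallest p in each direction and the 2 of highest CPM. Values per library were fixed for 8 of these and Scgb1a1. Those for Cd177, Cxcl17, Clu, Ccno, Csf3r, Scd1, Zbtb16 and Muc5ac, the other list members named and the 4 promoters were chosen after values were seen. Genes and the 37 lists were chosen with earlier results of these data known. Some genes are not reported here.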

Additional observations from a re-analysis of the deposited data

Results flagged for a closer look

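Single libraries lay far from the rest of their condition for 12 of 64 sets of values checked (Dixon's test, of which chance flags about 1 in 20). The treated KO library of day 7, replicate 1, was the highest for Apold1 at 10.6 CPM (next 6.17), Il1b at 28.7 CPM (next 7.18), Klhl3 at 8.35 CPM (next 6.35) and S100a8 at 163 CPM (next 35.6). The other treated KO library of day 7 was the highest for Cd177 at 40.9 CPM (next 21.8). The treated KO library of day 5, replicate 1, was the lowest for Scd1 at 651 CPM (next 2020) and the highest for Il7r at 11.2 CPM (next 4.74). The treated C library of day 5, replicate 2, was the highest for Scgb1a1 at 2490 CPM (next 1890). The untreated KO library of day 7, replicate 2, was the highest for Apold1 at 7.7 CPM (next 5.47). The untreated KO library of day 5, replicate 1, was the highest for Atf3 at 29.7 CPM (next 22.1) and Klhl3 at 10.1 CPM (next 7.38). The untreated C library of day 5, replicate 1, was the highest for P2ry12 at 159 CPM (next 3.3).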

How the results depend on the processing

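The difference of responses was called for 0 genes under DESeq2, RLE scaling, the replicate block, letters b and f, pooled genotypes, 3 libraries left out together and each library left out in turn. It was called for 1 gene with the 23 libraries alone, 10 with voom and 233 without a filter on low counts. That last setting estimated an infinite prior degrees of freedom (8.24 with the filter) and called Xist (adjusted p 1.62e-23). Xist was above the Y-linked Ddx3y in 3 of 5 treated and 2 of 6 untreated libraries of day 7. At day 5 it was above in 2 of 6 treated and 3 of 6 untreated libraries. Sex was not in the fit, and its part in the differences was not tested. Calls at day 5 (1476) became 2696 without a filter, 244 with letters b and f, 6146 with voom and 2564 with 3 libraries left out, and 556 to 4073 with 1 library left out. Calls at day 7 (77) became 132 with DESeq2, 209 without a filter and 151 with voom, and 33 to 102 with 1 library left out. For C lungs the difference gave 613 genes without a filter, 1 with the replicate block and 0 to 296 with 1 library left out, the 296 being without the untreated C library replicate 3 of day 5. For KO lungs it gave 58 without a filter and 0 with each library left out. For KO minus C lungs it gave 318 without a filter, 2 with DESeq2 and 0 with each library left out. Treated lungs of day 7 minus day 5 (1311) gave 1974 with DESeq2, 426 with 3 libraries left out and 426 to 1546 with 1 left out, and untreated lungs (4460) 2600 to 5657. The causes were not tested, other than by how each setting is built.

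The labels do not say what a replicate number shares. In deviations from group means, same-numbered libraries correlated at a median of 0.01 over 77 pairs (-0.429 to 0.436). Libraries of other numbers correlated at a median of -0.008 over 154 pairs. The replicate block called 0 genes for the difference, as did the main fit, so that count cannot decide whether samples were paired. Of 92 gene differences, none of them called, 33 passed the threshold under another setting (41 values in all) and 41 moved by more than their standard error under some setting (66 values). All 33 passed in the fit without a filter, the setting with an infinite prior degrees of freedom. Of these, only Atf3, Arid5a, H2-Q10, Prdm8, Zfp711, Clu and Cdc20b also passed with voom, and only Atf3 with the 23 libraries alone. Depth was 13.06 to 21.06 M counts, which limits genes under 1 CPM.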
